A study of Daphnia magna with 20 samples.

Results

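Females at the end of the intermoult cycle (F3) were set against females at its beginning (F1) in the water flea *Daphnia magna*. The comparison rests on 6 of the 20 arrays of the series, 3 for each of these life-stages, and all probes with a gene model entered it. Of the 162718 gene-model probes on the array, 76235 exceeded the background in every array of at least 1 life-stage and were tested. They stand for 28459 of the 41316 gene models. The other 14 arrays came from females in the middle of the cycle (F2), juveniles (J), males (M), and early (E1) and late (E3) embryos. They entered the model that estimated the spread. In the labels F2 females and males were 16 days old, juveniles 4 days, early embryos 12 h and late embryos 60 h. The males came from mothers exposed to methyl farnesoate, a juvenile hormone of crustaceans.

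F3 females were 18 days old and F1 females 15 days old in the sample labels, while the design text of the series gives a younger age for each. Both were untreated adult females of the third clutch, from a single clone kept by parthenogenesis, so no genetic variation between mothers is covered. F1 females were sampled just after the moult, when a new clutch had passed into the brood pouch, and F3 females shortly before the next moult, when their brood was close to release. Embryos of either brood were flushed out before the whole body was extracted. The labels describe the replicates as separate samples. Nothing states that they came from separate cultures, nor how many animals were pooled, so the spread between samples may be technical. Each SE and p-value rests on a spread pooled over all 20 arrays in 7 groups, not on the F3 and F1 arrays alone. In RNA from whole bodies, fewer cells of a type and less RNA per cell cannot be told apart.

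The intermoult cycle links growth and reproduction in cladocerans. At each moult the old cuticle is shed, under the control of ecdysteroid hormones, and a new cuticle made of chitin and cuticle proteins takes its place. Between moults the next clutch of oocytes is loaded with yolk in the ovary while the previous clutch develops in the brood pouch. No table used here names the gene models, so the results are given by probe, by gene model identifier and by the behaviour of the same probes in the other life-stages.

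The probes marked well above background made up 59.0, 56.1 and 47.1% on the F3 arrays, against 80.8, 58.3 and 25.4% on the F1 arrays. The lowest of these, F1 replicate 3, was the only array of both stages on slide 1, which was scanned on another date than the other 5 arrays. After subtraction of each probe's median over all arrays, it correlated with the other F1 arrays at 0.54 and 0.61, against 0.84 between those arrays. F3 replicate 1 correlated with the other F3 arrays at 0.72 and 0.63, against 0.89 between those arrays. Arrays of F3 and F1 correlated negatively with each other, between -0.27 and -0.16 over 75734 probes. Results are therefore also given without these arrays.

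A total of 12636 probes changed between F3 and F1 (16.6% of those tested), where a change counted from 1.5-fold upwards with an adjusted p under 0.05 (limma). Of these, 5634 were higher in F3 (7.39% of those tested) and 7002 were lower (9.18%). The changes were large. The median log2 fold change was 2.04 for the probes that rose, with a median SE of 0.45, and -2.57 for those that fell, with a median SE of 0.50. The probes that rose had a median normalised log2 signal of 9.61 in F3, against 6.80 in F1, and those that fell 7.08 in F3, against 10.15 in F1. All probes tested had nearly equal medians, 7.75 in F3 and 7.71 in F1, and a median log2 fold change of 0.22. The F3 and F1 arrays did not overlap for 5585 of the 5634 probes that rose and 6929 of the 7002 that fell. They did not overlap for 49.3% of all probes tested, which include the called ones. The call itself favours such a separation, so these counts add no support to it.

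The excess of lower calls was not stable. The share of called probes that were higher in F3 was 44.6%, but it was 50.1% in a fit of the 6 arrays alone, 56.1% in a fit of the 9 female arrays and 53.5% without the 4 arrays of slide 1. Without F1 replicate 3 and F3 replicate 1, 9238 probes were called, and 8517 of the 12636 remained called in the same direction. The 3 F3 arrays shared a scan date with F1 replicates 1 and 2. Without F1 replicate 3, so that only arrays of that date were compared, 9422 probes were called. Arrays of other stages from other dates still entered the spread of that fit.

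By size, 4407 probes rose and 6156 fell by at least 2-fold, and 1169 rose and 1773 fell by at least 16-fold. At 64-fold or more the order turned: 443 probes of 231 gene models rose and 343 probes of 171 gene models fell. Random probes, which were printed as negative controls and stand for no gene, set a limit on how these calls can be read. Of 2532 random probes, 137 passed the filter and 21 of them were called (15.3%), 6 higher and 15 lower in F3. This share was close to the 16.6% of gene-model probes. At 2-fold or more, 13.9% of the gene-model probes and 15.3% of the random probes were called. The shares were 9.40% and 12.4% at 4-fold or more, and 6.21% and 10.2% at 8-fold or more. In these classes random probes were called more often than gene-model probes. At 16-fold or more, 3.86% of the gene-model probes and 3.65% of the random probes were called. At 64-fold or more 1.03% of the gene-model probes were called. Of the 137 random probes 0 changed by that much, whatever the p, but a count of 0 allows a share of up to 2.19% (counting error only), so at this size the gene-model and random probes cannot be told apart either.

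**Figure D1:**
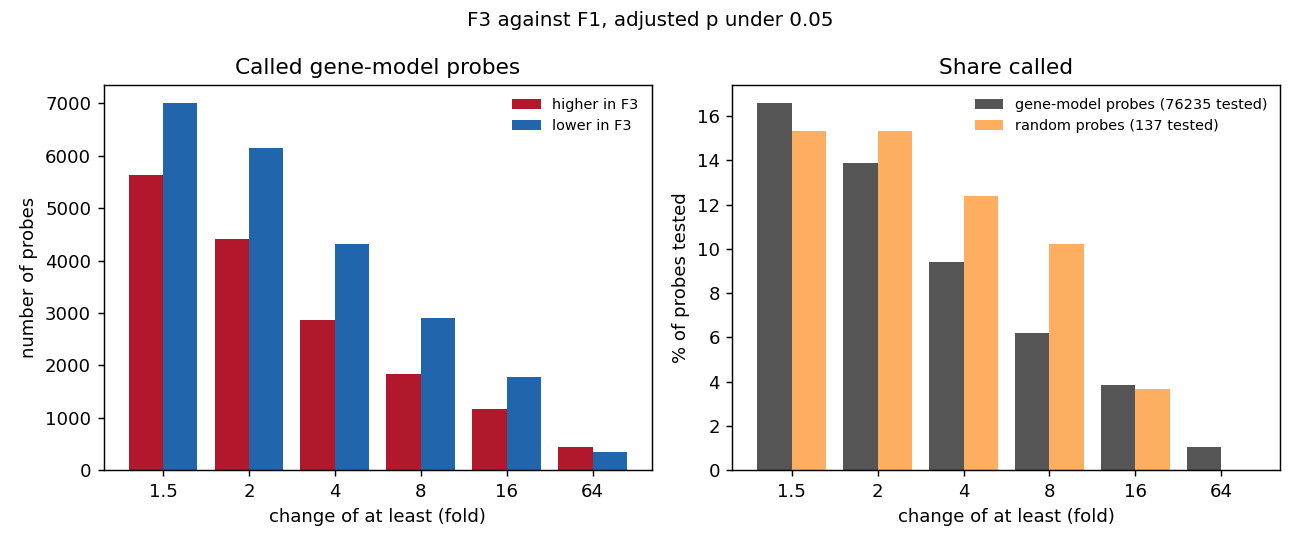
Number of gene-model probes called higher or lower in F3 than in F1 (left, bars) and share of gene-model and random probes called (right, % of those tested), by the least fold change. At 1.5-fold, 5634 probes were higher and 7002 lower, and the share of random probes called, 15.3%, was close to that of gene-model probes. At 2-fold, 4-fold and 8-fold the share was larger for random probes. At 64-fold, 0 of 137 random probes were called, which allows a share of up to 2.19%.

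The plot of change against level shows that called probes lay at all signal levels. Of the 5634 probes that rose, 2672 were above background in all 6 arrays, and so were 4081 of the 7002 that fell. Of all 76235 probes tested, 42329 were above it in all 6 arrays. Others were above background on every array of the brighter stage and on none of the dimmer one, 1565 that rose and 941 that fell. The size of their change depends on signals under the background. A smaller number passed the filter only through the stage in which they were bright, 304 that rose and 32 that fell, and these had to differ between the stages to be tested at all.

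**Figure D2:**
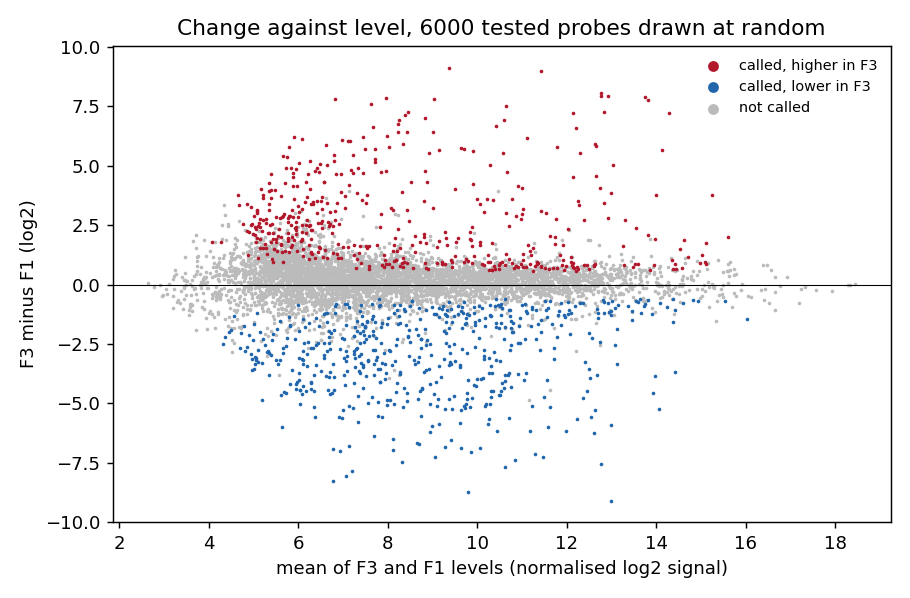
Difference F3 minus F1 (log2) against the mean of the F3 and F1 levels (normalised log2 signal) for a random draw of 6000 tested probes, 1 point per probe, coloured by call. Called probes are spread over the whole range of levels, and most probes lie slightly above 0, as the median of 0.22 over all tested probes states.

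At the level of gene models, 6417 had at least 1 called probe (22.5% of 28459). Of these, 3114 had only probes that rose, 3267 only probes that fell and 36 both. All tested probes rose in 669 gene models with at least 2 of them, and all fell in 1132. Of 10339 gene models with all 4 probes tested, 3092 had at least 1 called probe. Every probe rose in 382 of these and every probe fell in 631, while 599 had a single called probe that rose and 415 a single one that fell. For called probes of such gene models, the other 3 probes had the same sign in 93.2% of cases. This share counts probes, and it includes the 382 and 631 gene models with every probe called, where agreement was fixed. Counted by gene model, all 4 signs were equal in 66.4% of those with no called probe, so these shares cannot be compared directly. These probes read the same RNA on the same arrays and are no replicates of the stages.

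The 4 gene models named below were chosen among those whose F3 and F1 arrays did not overlap in any tested probe. Their separation is therefore a condition of the choice. Among them the gene model velh8ptf128k67Loc27t2 had the largest measured rise in its weakest probe. Its most changed probe gave normalised log2 signals of 15.49, 15.04 and 15.07 on the F3 arrays, against 5.32, 6.08 and 8.13 on the F1 arrays. All F3 arrays lay far above all F1 arrays, and F1 replicate 3 was the highest of its stage. The log2 fold change was 8.69 ± 1.22 (SE, n = 3 each; adjusted p = 0.000119, limma). The signal of this probe exceeded the background of the random probes on 2 of the 3 F1 arrays, so the size of the change also depends on how dim signals are treated. With F1 signals under that background raised to it, the rise was 348-fold, and 413-fold as measured. The other 3 probes had measured log2 fold changes of 8.13 to 8.53. One of them exceeded the background on 0 of the 3 F1 arrays. Its measured fold change of 369 was 43.6 with F1 raised to the background. Another exceeded the background on 1 F1 array and was 87.4-fold higher with F1 raised to it, against 280-fold as measured. Under normexp background correction, an alternative that lifts dim signals, the log2 fold changes of the 4 probes were 5.61 to 7.96. The most changed probe was as bright in late embryos and males, with means of 15.74 in both, intermediate in F2 females (11.54) and juveniles (11.38), and dim in early embryos (5.44).

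The second gene model by this measure, velh8ptr133k67Loc2t30, behaved alike. Its most changed probe had signals of 15.00, 14.80 and 14.72 on the F3 arrays, against 4.29, 5.55 and 7.75 on the F1 arrays. F1 replicate 3 was again the highest of its stage. The log2 fold change was 8.98 ± 1.32 (SE, n = 3 each; adjusted p = 0.000182, limma), and the 2 other tested probes rose by 8.07 and 8.31. The most changed probe exceeded the background on 1 of the 3 F1 arrays and was 317-fold higher with F1 raised to it, against 505-fold as measured, while the 2 others exceeded it on all 6 arrays. Under normexp background correction the 3 log2 fold changes were 7.31 to 7.49. Its levels elsewhere had the same order, with means of 15.35 in late embryos and in males, 11.26 in F2 females, 10.71 in juveniles and 6.95 in early embryos. The fourth probe was not tested and stayed dim in both stages, with means of 3.29 in F3 and 3.18 in F1. With F1 raised to the background, the weakest probe of this gene model rose 269-fold, against 43.6-fold for velh8ptf128k67Loc27t2. The order of these 2 gene models was then reversed, as it was under normexp background correction (weakest log2 fold changes 7.31 and 5.61).

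The gene model velh8ptf001k67Loc33t2 had the largest measured fall in its weakest probe. A probe that exceeded the background on all 6 arrays had signals of 7.31, 7.00 and 6.84 on the F3 arrays, against 17.32, 17.24 and 16.66 on the F1 arrays. Replicates of each stage lay close together, and the stages were separated by a log2 fold change of -10.03 ± 0.85 (SE, n = 3 each; adjusted p = 2.61e-06, limma). This SE comes from the fit of all 20 arrays and was 0.25 in a fit of the 6 arrays alone. Under normexp background correction the log2 fold change was -9.20. The second tested probe exceeded the background on 0 of the 3 F3 arrays, with signals of 4.49, 4.51 and 3.75 in F3, against 15.41, 14.91 and 14.39 in F1 (adjusted p = 1.72e-06, limma). Its measured fold change of 1613 was 576 with F3 raised to the background, and its log2 fold change was -8.15 under normexp background correction. The first probe was bright in juveniles and males (means 16.80 and 15.85) and lower in early and late embryos (10.11 and 9.48). The F2 arrays differed among themselves, with 7.68, 11.29 and 11.64, so that F2 replicate 1 was already near the F3 level. The 2 probes that were not tested had means of 3.74 and 3.01 in F3, against 5.19 and 6.23 in F1.

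In veln4ptr001k49Loc8t2, the second gene model that fell, 1 of the 3 tested probes exceeded the background on all 6 arrays. Its signals were 7.66, 6.54 and 7.54 on the F3 arrays, against 17.14, 16.70 and 16.02 on the F1 arrays. The log2 fold change was -9.38 ± 0.75 (SE, n = 3 each; adjusted p = 2.00e-06, limma), and -8.59 under normexp background correction. Juveniles and males were high again for this probe (means 15.97 and 15.04), and late embryos (9.90), F2 females (9.27) and early embryos (9.08) were lower. The 2 other tested probes exceeded the background on 1 and on 0 of the F3 arrays. They were 905-fold and 473-fold lower with F3 raised to the background, against 932-fold and 1044-fold as measured, and -8.36 and -8.17 on the log2 scale under normexp background correction. The fourth probe was not tested and had means of 2.68 in F3 and 4.67 in F1. None of the probes of the 4 gene models was saturated on any array.

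**Figure D3:**
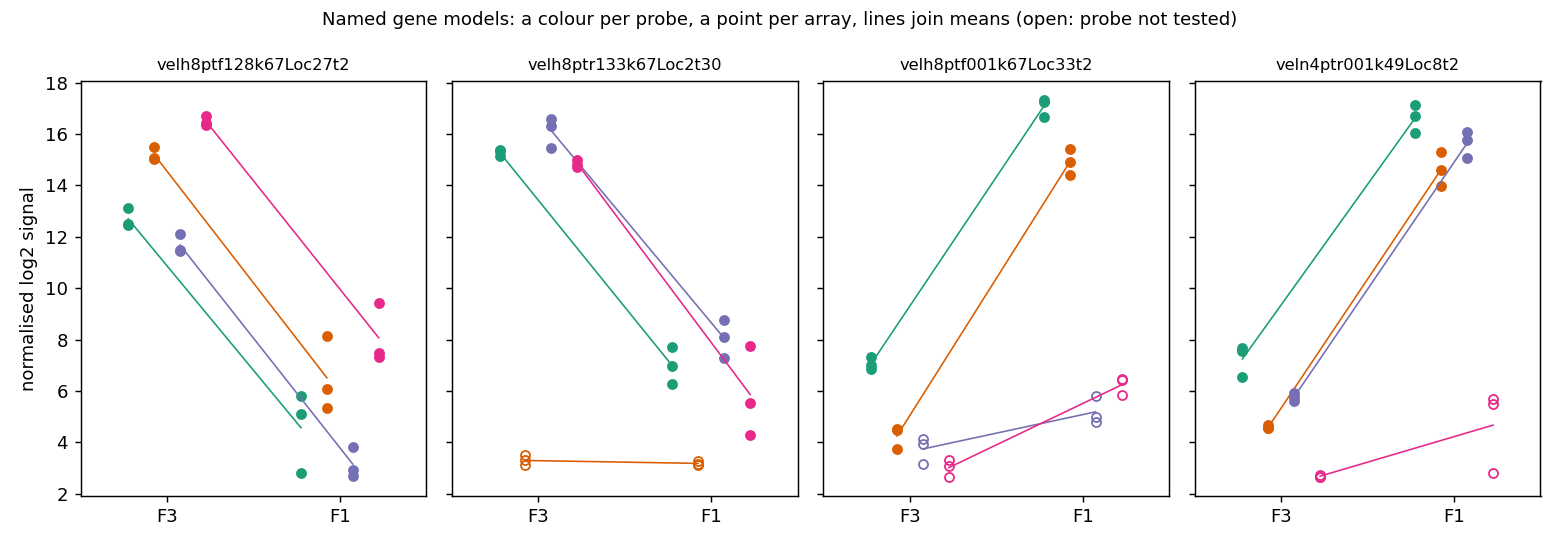
Normalised log2 signal of the probes of the 4 named gene models in F3 (left in each panel) and F1 (right), with 1 point per array, 1 colour per probe and lines between the means of 3 arrays. Filled points belong to tested probes. The gene models were chosen so that no F3 array overlaps an F1 array in any tested probe. Open points belong to probes that did not pass the filter, all of which lie below 7.

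The most changed probes were also followed as groups. Their fold change was set by F3 and F1 alone, while the other stages entered the filter and the estimate of the spread behind the calls. The 443 probes that rose at least 64-fold had medians of 13.00, 13.64 and 13.21 on the F3 arrays, against 5.64, 6.45 and 6.39 on the F1 arrays. Outside these arrays their medians were 13.57 in E3, 13.47 in M, 12.35 in F2, 9.12 in J and 5.80 in E1. These probes were thus about as bright in late embryos and males as in F3 females. Of the 4 stages outside the female cycle, males were highest for 56.0% of them (16.4% of all probes tested), late embryos for 43.8% (23.5%) and juveniles for 0 (20.5%). Individual juvenile arrays differed, with medians of 10.54, 9.21 and 7.93, and so did E1 arrays, with 4.17, 5.30 and 8.40. M replicates 1 and 2 were the only male arrays, so all male values rest on them. They had medians of 13.73 and 13.34 for these probes and correlated at 0.48. Neither was scanned on the date of the F3 arrays, and M replicate 1 had 17.4% of probes well above background.

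The 343 probes that fell at least 64-fold had medians of 7.16, 5.26 and 5.36 on the F3 arrays, against 12.60, 13.03 and 13.62 on the F1 arrays. F3 replicate 1 was the highest of its stage and still well below F1. Their medians were 12.85 in J, 11.21 in M, 10.11 in E3, 8.47 in F2 and 5.39 in E1, so juveniles stood next to F1 females. Juveniles were highest of the 4 stages outside the cycle for 65.9% of these probes, against 20.5% of all probes tested. Early embryos were the lowest of the 4 stages for 88.0% of the probes that rose and 88.9% of those that fell at least 64-fold, against 32.8% of all probes tested.

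**Figure D4:**
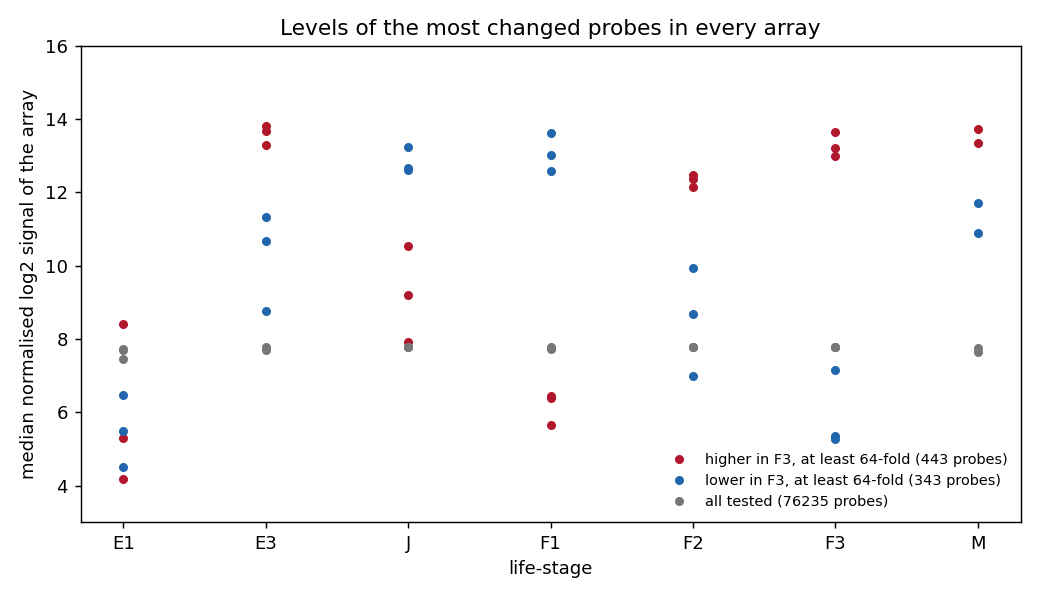
Median normalised log2 signal in each of the 20 arrays (points), by life-stage, for the 443 probes at least 64-fold higher in F3, the 343 probes at least 64-fold lower in F3 and all 76235 probes tested. F3 and F1 chose the probes. In the other stages, the probes that rose are bright in E3, F2 and M, and those that fell are bright in J and M.

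The level of F2 females relative to the midpoint of F3 and F1 was tested by a contrast that is orthogonal to the one that called the probes. F2 was above the midpoint for 1112 of the probes that rose (19.7%) and below it for 54 (0.958%). Over all probes tested, F2 was above the midpoint for 4.02% and below it for 1.3%. Among probes not called between F3 and F1, F2 was above it for 1.25% and below it for 0.597%. Both contrasts share 1 estimate of the spread for each probe, so these shares are not independent of the calls. For probes that rose, a position above the midpoint means that most of the rise was present in F2. Their median step was 1.39 for F2 minus F1 and 0.53 for F3 minus F2. For those that rose at least 64-fold the steps were 5.92 and 1.35. Of the 137 random probes, 13 were above the midpoint (9.49%) and 1 below.

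Probes that fell were divided. F2 was above the midpoint, near the F1 level, for 1155 of them (16.5%), and below it, near the F3 level, for 556 (7.94%). Among probes that fell at least 16-fold the median step was -0.61 for F2 minus F1 and -4.11 for F3 minus F2, so that the larger step was the later one. Among those that fell at least 64-fold the median steps were -5.24 and -2.03. The F2 arrays lay far apart for these probes, with medians of 6.99, 9.95 and 8.69, and on F2 replicate 2 the later step was the larger, so no order is read for them. These shares depended on the number of F2 arrays. With 1 F2 array left out, 12.2 to 13.0% of the probes that rose and 4.95 to 7.93% of those that fell had F2 above the midpoint. The 12 tested probes of the named gene models gave 1 call, a probe of veln4ptr001k49Loc8t2 where F2 minus the midpoint was -2.67 ± 0.65 (SE, log2; adjusted p = 0.0244, limma).

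Lists were made of probes high in 1 of the stages E1, E3, J, M and F2. Each probe was at least 4-fold above each of the other 4 stages, with an adjusted p under 0.05 (limma). F3 and F1 levels were not compared for this, but their arrays entered the filter and the estimate of the spread. Many probes of the juvenile list were lower in F3. Of its 161 probes, of 97 gene models, 77 fell in F3 (47.8%, against 9.18% of all probes tested) and 0 rose, with a median log2 fold change of -2.03. At an unadjusted p under 0.05 in limma, 92 fell and 0 rose, and the methods' t-test after Benjamini-Hochberg adjustment called 70 lower and 0 higher. Its array medians were 4.75, 4.23 and 4.14 in F3, against 6.87, 7.07 and 6.76 in F1, with no overlap. The summed linear signal of the list, as a percentage of its mean in juveniles, was 1.33 to 2.50% in F3, against 45.4 to 61.3% in F1. F2 females had 1.32 to 3.65%, but the list rule itself required F2 to be at least 4-fold below juveniles. F3 differed less from F2 (4690 probes called) than from F1 (12636 probes called). How far the rule also favoured probes low in F3 was not tested. F3 replicate 1 was at least 4-fold above both other F3 arrays for 9 probes of this list. Without it, 67 of 148 listed probes fell (45.3%), against 8.55% of all probes tested in that fit, and without F1 replicate 3 as well, 66 of 154 (42.9%), against 7.26%. Of the 161 probes, 44 were not above background in any F3 or F1 array.

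The embryo lists bear on RNA from the brood and from ripe eggs. Of 609 probes in the late embryo list, 136 rose in F3 (22.3%, against 7.39% of all probes tested) and 55 fell (9.03%, against 9.18%). Array medians were 6.27, 5.78 and 5.68 in F3, against 5.45, 5.56 and 5.53 in F1, and the summed signal was 5.66 to 8.48% of that in late embryos in F3, against 5.09 to 6.51% in F1. F3 replicate 1 was the highest, at least 4-fold above both other F3 arrays for 43 probes of this list (7.06%), against 2.37% of all probes tested. Without F3 replicate 1, 17.4% of the list rose, against 6.51% of all probes tested. The median log2 fold change of the list was 0.21, close to the 0.22 of all probes tested. Of its 609 probes, 145 were not above background in any F3 or F1 array.

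Few probes of the early embryo list were called. Of its 2593 probes, 148 rose in F3 (5.71%) and 51 fell (1.97%), both below the shares of all probes tested, and the median log2 fold change was 0.28, against 0.22. Of the listed probes, 454 were not above background in any F3 or F1 array. The summed signal was 11.6 to 12.7% of that in early embryos in F3, against 10.1 to 10.6% in F1. Without F3 replicate 1, 3.26% of the list were higher and 3.53% lower, against 6.51% and 8.55% of all probes tested. F3 replicate 1 was at least 4-fold above both other F3 arrays for 116 probes of the list (4.47%). F3 females had carried late embryos and F1 females early embryos, and the part of remaining brood in these values was not tested.

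Of 632 probes in the male list, 53 rose (8.39%, against 7.39% of all probes tested) and 36 fell (5.70%, against 9.18%), and 278 were not above background in any F3 or F1 array. The share that rose was near that of all probes. Of 606 probes in the F2 list, 123 rose (20.3%, against 7.39%) and 65 fell (10.7%, against 9.18%). F2 differed less from F3 (4690 probes called) than from F1 (6321 probes called). How far the rule of the F2 list favoured probes higher in F3 was not tested. When arrays were scaled on their 75th percentile instead of by quantiles, 6.81% of the male list rose and 10.4% fell, and 10.7% of the F2 list rose and 15.0% fell, against 7.19% and 10.51% of all probes tested. The male list was then near all probes in both directions. Its summed signal was 6.56 to 7.81% of that in males in F3, against 11.1 to 13.6% in F1, while its median log2 fold change of 0.12 lay below the 0.22 of all probes tested.

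**Figure D5:**
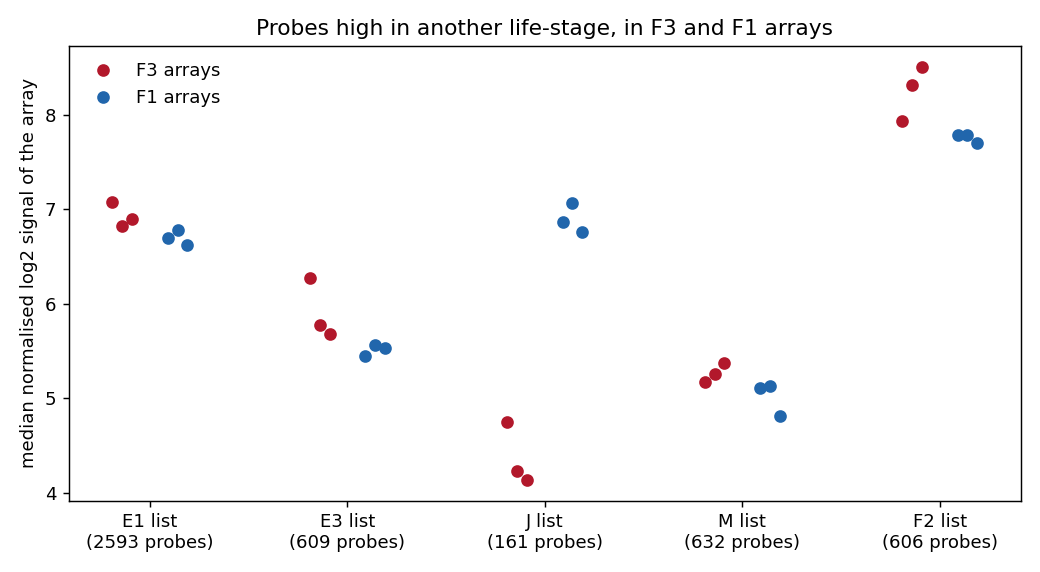
Median normalised log2 signal of 5 lists of probes in each F3 array (left of each pair) and F1 array (right), with 1 point per array in the order of the replicates. Each list holds probes high in the named stage over the other listed stages. F3 and F1 levels were not compared for this, but their arrays entered the filter and the estimate of the spread. The juvenile list is 4.14 to 4.75 in F3 and 6.76 to 7.07 in F1, and F3 replicate 1 is the highest F3 array in the E1, E3 and J lists.

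Slide 4 held 1 array of each stage, F3 replicate 3 and F1 replicate 1. Calls were made without this pair and read in it. Of 2917 probes called higher in F3, 97.4% were higher in the F3 array of the pair, with a median log2 difference of 3.26, and of 4157 called lower, 99.0% were lower, with a median of -3.24. Over all probes tested, 55.8% were higher and 44.2% lower in this pair. The same was done for F3 replicate 1 and F1 replicate 3, the arrays that stood apart from their stages. In that pair 96.1% of 3621 probes were higher, with a median of 2.41, and 94.7% of 5617 were lower, with a median of -2.22, against 61.3 and 38.7% of all probes tested. With the slide as a block in the model, 10584 probes were called.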

How the data were processed

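For each single-colour array the authors deposited scanner output, with spot intensity on a linear scale, already corrected for background by Agilent Feature Extraction (version 10.5.1.1 in the files, 10.5 in the submitters' processing notes). A matrix of log2 values was deposited too. These equal quantile-normalised log2 signals minus each probe's median over the arrays (r of at least 0.99968). The array was printed on slides of 4.

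Here outlier spots and control spots were left out, the log2 processed signal was averaged per probe, and the 20 arrays were quantile normalised and fitted with limma 3.58.1 (R 4.3.3, and the data.table package, version 1.17.8; Python 3.11.15, pandas 2.3.3, numpy 2.4.6, matplotlib 3.10.9), with 7 groups and the contrast F3 minus F1. The background of an array was percentile 95 of its random probes. Fold changes of dim probes were also computed with the dim signals raised to it. P-values were adjusted by Benjamini-Hochberg over the gene-model probes tested. A random probe was called when its p was at or under the largest p called among gene-model probes and its change was at least 1.5-fold. The script was tested on simulated data. The number of arrays limits the precision.

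A limma fit stands in place of the methods' t-test because 3 arrays per stage leave it few degrees of freedom. The table of gene names matched 0 of 41316 gene models, so by the rule for this case the gene models named are the 2 that rose and the 2 that fell with the largest change in their weakest probe, among those with at least 2 tested probes, all called one way and without overlap. Members, lists and comparisons were chosen with earlier results of these data known. No probe sequences were used here. Alternatives changed scaling, background, filter, samples, blocks, weights, test and arrays.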

Additional observations from a re-analysis of the deposited data

How the results depend on the processing

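The number of probes changed between F3 and F1 was 8673 to 11606 with 1 array left out, lowest without F3 replicate 2, and the number of gene models 4429 to 5877. The share of called probes higher in F3 was then 39.8 to 46.2%. Of the 12636 called probes, 8596 to 10662 remained called in the same direction.

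Larger departures came from the samples and the test. A filter on all 6 arrays gave 7647 probes and 4161 gene models, with fewer probes tested. A fit of the 9 female arrays gave 23934 probes, 11703 gene models and 56.1% higher, array weights 31279 probes, 15022 gene models and 55.4% higher (the weights did not fully converge), and leaving out the 4 arrays of slide 1, chosen after seeing the data, 24702 probes, 12390 gene models and 53.5% higher. A fit of the 6 arrays turned the share to 50.1%. The methods' t-test at an unadjusted p under 0.001 gave 4125 probes, and 12150 after Benjamini-Hochberg. A test against a change of 1.5-fold gave 6900 probes. Requiring 2 called probes left 3196 gene models. The cause of these shifts was not tested.

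For F2 against the midpoint, the fit of the 9 female arrays gave 1.56% of the probes that rose below it, and 24.8% above and 12.7% below for those that fell. The 75th percentile shift gave 1.497% of the probes that rose below it. Without F1 replicate 3 and F3 replicate 1, F2 was above it for 21.98% and below it for 0.884% of the probes that rose, and above it for 21.3% and below it for 6.14% of those that fell. With 1 F2 array left out, an alternative chosen after seeing the data, the ranges were 12.2 to 13.0% above and 0.406 to 0.66% below for probes that rose, and 4.95 to 7.93% above and 2.66 to 4.94% below for those that fell.

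Lists set at 16-fold gave 14.6% higher and 4.88% lower for E3, 5.47% higher for M, 32.5% higher and 5% lower for F2, and 0% lower for E1. Without F1 replicate 3 and F3 replicate 1, 1.57% of the E1 list was higher and 2.80% lower. Without F3 replicate 1 alone, chosen after seeing the data, these were 3.26% and 3.53%. The 75th percentile shift gave 3.92% lower for E1, 10.4% lower for M and 10.7% higher for F2, where all probes tested had 7.19% higher and 10.51% lower. The share of the J list that fell stayed between 42.9 and 66.7%.

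Deviations of same-numbered F3 and F1 arrays from their stage means correlated at -0.10, 0.09 and 0.0016. Those of differently numbered arrays correlated at -0.17 to 0.18. With 3 arrays per stage these values cannot decide whether replicate numbers pair the samples. A replicate block gave 11894 probes, 6047 gene models and 43.7% higher. All 12 tested probes of the named gene models kept their direction and their call in each of the 20 or 21 alternatives that tested them, but not their size. Normexp background correction made 11 of the 12 fold changes smaller by over 1.5 times, by up to 7.57 times for the dimmest, and left log2 sizes of 5.61 to 7.96 for the probes that rose and -9.20 to -8.15 for those that fell. Over all alternatives the ranges were 5.61 to 9.92 and -11.21 to -8.15. Dim probes limit what can be measured, and F1 replicate 3 had the fewest probes well above background among the F3 and F1 arrays.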

Other observations

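The share of probes called grew with the level in the 14 arrays of the other stages. When the probes tested were divided by that level into 4 groups of equal size, 5.77% rose in F3 and 4.80% fell in the dimmest group, and 10.0% rose and 13.0% fell in the brightest. In the dimmest group more probes rose than fell, and in each of the other 3 more fell.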
